A study of Mus musculus with 6 samples.

Results

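*Pdyn* (ENSMUSG00000027400), the gene of prodynorphin, is described here in mouse beta-cells that had been cultured with or without the other islet endocrine cells. It is 1 gene of the 13535 in the expression table. It was chosen because of its difference between the 2 conditions, so its levels are given as a description and no test of it is read. RNA-seq was performed on beta-cells from wild-type adult male C57BL/6JRj mice in 3 independent experiments, numbered 35, 36 and 37. In each experiment, islet cells purified by FACS were reaggregated either as pseudo-islets, which held alpha-, beta- and delta-cells, or as pseudo-beta, which held beta-cells alone. After 5 days of culture the beta-cells of both kinds of cluster were isolated by a further sort and sequenced, giving 3 libraries per condition and 6 in all. The question was whether *Pdyn* mRNA in beta-cells depends on the presence of the other endocrine cells during culture. The clusters are a rebuilt model, and the beta-cells of pseudo-islets came from a mixture that had to be purified again. Values are DESeq2-normalized counts, and the values of a library summed to between 17994346 and 19635287.

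Prodynorphin is a precursor protein stored in secretory granules. Prohormone convertases cut it at pairs of basic residues into alpha-neoendorphin, dynorphin A and dynorphin B, each of which starts with the Leu-enkephalin sequence. These peptides act mainly on the kappa-opioid receptor, which couples to inhibitory G proteins and lowers cAMP. The gene is best known in the brain, where its transcription responds to cAMP and to calcium. In beta-cells, glucagon and GLP-1 receptors raise cAMP through Gs, adenylate cyclase and protein kinase A.

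*Pdyn* lies on the minus strand of chromosome 2, at chr2:129686565-129699844 in GRCm38. Its full transcript has 4 exons, 2386 bases and 248 codons, and no other annotated gene overlaps it. Exons 1 and 2 lie in the 5′ UTR, exon 3 holds the start of the reading frame, and exon 4 holds 612 of the 744 coding bases. The stretches around the coding starts of dynorphin A and of dynorphin B are shown because these peptides are the products the measured mRNA is known for. Each stretch was cut at 51 bases, whether or not the peptide ends there. Both lie in exon 4, are printed 5′ to 3′ on the coding strand with the Leu-enkephalin codons in capitals, and begin with the codons of the pair of basic residues at which the precursor is cut. They lie at chr2:129688100-129688150 and chr2:129688043-129688093, in the order given.
dynorphin A: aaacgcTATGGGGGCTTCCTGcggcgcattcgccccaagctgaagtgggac
dynorphin B: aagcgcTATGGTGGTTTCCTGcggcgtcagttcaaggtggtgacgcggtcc
The capitals encode the same 5 residues but differ between the copies at 2 of 15 bases, and the whole stretches differ at 19 of 51. Both copies belong to 1 mRNA, so a gene-level count does not separate the peptides.

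The primers that the study used for qRT-PCR of *Pdyn* are shown because they read another stretch of the same mRNA.
forward primer: ccttctgaatcttggatcggc
reverse primer: gatctcaaagcctggggatga
The forward primer matched exon 1 and the reverse primer exon 2, each at 1 place in the transcript, giving an amplicon of 99 bases that lies wholly in the 5′ UTR. The RNA-seq value sums reads over all exons of the annotated transcripts, of which there are 3. One of these starts at an internal site downstream of exon 1, so the amplicon does not read it.

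*Pdyn* was higher in beta-cells from pseudo-islets than in those from pseudo-beta in all 3 experiments. The beta-cells of pseudo-islets had 949.8 normalized counts in experiment 35, 2308 in experiment 36 and 1792 in experiment 37. Those of pseudo-beta had 156, 314 and 358 in the same experiments. The groups did not overlap, and the lowest pseudo-islet library, that of experiment 35, was still above the highest pseudo-beta library. Experiment 35 was the lowest in both conditions. The 2 highest libraries came from different experiments, 36 among the pseudo-islets and 37 among the pseudo-beta. Across the table, 10.8% of genes had groups that did not overlap, 5.63% with pseudo-islets higher and 5.13% with pseudo-islets lower, and 18.0% of genes were higher in pseudo-islets in 3 of 3 experiments. Since *Pdyn* was chosen for this contrast, nothing is read from that for the gene itself. In bulk RNA, fewer beta-cells with *Pdyn* mRNA and less *Pdyn* mRNA per cell cannot be told apart.

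**Figure D1:**
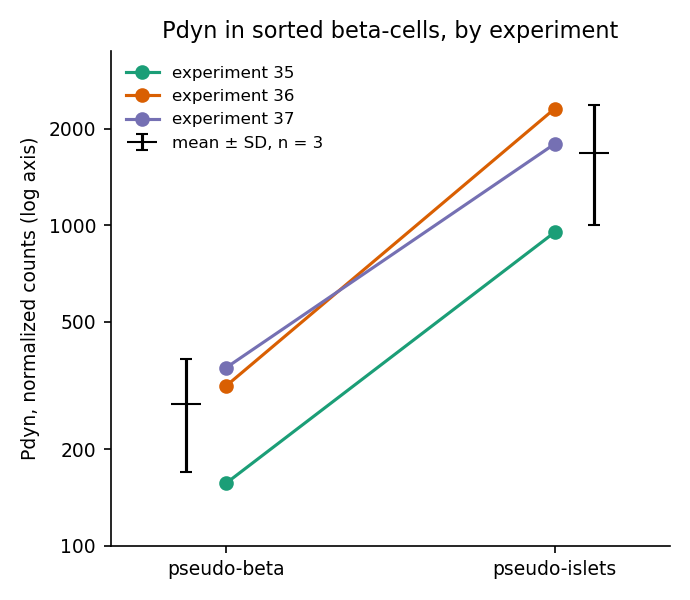
*Pdyn* in beta-cells of pseudo-beta and pseudo-islets. Points are single libraries in normalized counts on a log axis, lines join the libraries of 1 experiment, and the bars beside them are the mean ± SD of 3 libraries. All 3 lines climb, from between 156 and 358 to between 949.8 and 2308.

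The ratio of pseudo-islets to pseudo-beta was 6.08 in experiment 35, 7.34 in experiment 36 and 5.00 in experiment 37. On the log2(value + 1) scale these are gains of 2.60, 2.87 and 2.32, where a gain is the pseudo-islet value minus the pseudo-beta value of the same experiment. The levels therefore differed more between experiments than the gains did. The coefficient of variation of *Pdyn* was 40.7% over the pseudo-islets and 38.5% over the pseudo-beta, against medians of 16.4% and 18.4% over the 10577 genes whose mean reached 50 normalized counts. Thus *Pdyn* was more variable than 91.7% of these genes in pseudo-islets and than 88.5% in pseudo-beta. The SD of its 3 gains was 0.28, close to the median of 0.26 over the same genes.

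The place of *Pdyn* in the expression range differed accordingly. In pseudo-beta it ranked 7933, 5946 and 5469 from the top of 13535 genes in experiments 35, 36 and 37. In pseudo-islets it ranked 2669, 1004 and 1379. These ranks correspond to 41.4%, 56.1% and 59.6% of genes lying below it in pseudo-beta, and 80.3%, 92.6% and 89.8% in pseudo-islets. As a share of the summed values of a library, it made up 0.000864%, 0.00175% and 0.00195% in pseudo-beta and 0.00510%, 0.0121% and 0.00913% in pseudo-islets. The least abundant pseudo-islet library was thus above every pseudo-beta library on this scale as well.

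Per kilobase of exon, *Pdyn* was a mid-level precursor among the 20 genes of peptide hormones, neuropeptides and granins that were analysed. It stood at 583 ± 237 normalized counts per kb (SD, n = 3) in pseudo-islets, place 12 of 20, and at 95.7 ± 36.8 (SD, n = 3) in pseudo-beta, place 13. In pseudo-islets its level per kb lay below *Pyy* (1196 ± 845) and *Gcg* (1071 ± 397) and above *Sst* (253 ± 45.3) and *Npy* (182 ± 98.0). Within their SDs, *Pdyn* could not be separated from *Pyy* or *Gcg* in that order, whereas the *Sst* range lay lower. In pseudo-beta its level per kb lay below *Pomc* (135 ± 26.1) and above *Adm2* (63.4 ± 6.41), and the ranges of mean ± SD of these genes overlapped that of *Pdyn*. *Ins2*, the main insulin gene of the mouse, led the order with 4414779 per kb in pseudo-islets.

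Among the 10577 genes with a mean of at least 50, the gain of *Pdyn* ranked 9 in experiment 35, 11 in experiment 36 and 7 in experiment 37. Its mean gain of 2.60 ranked 6 and its smallest gain of 2.32 ranked 3. For comparison, the middle 90% of these genes had gains from -0.74 to 0.67, from -0.77 to 0.70 and from -0.69 to 0.61 in experiments 35, 36 and 37. Gains above 2 were found for 25, 24 and 7 genes in the 3 experiments, but only 3 genes, *Gcg*, *Sst* and *Pdyn*, had a gain of at least 2 in every one. A gain of at least 1 in every experiment was found for 16 genes.

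**Figure D2:**
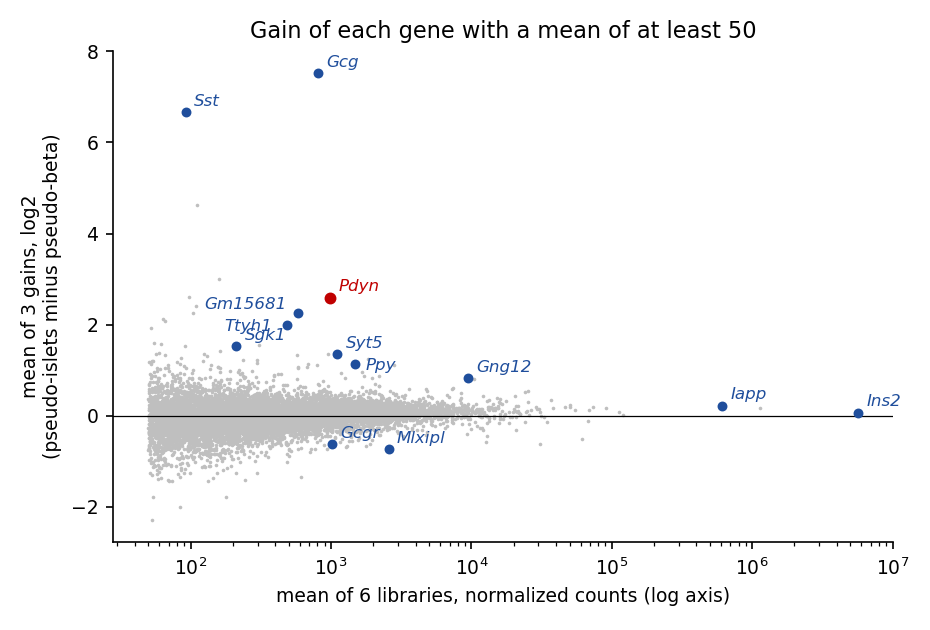
Mean gain of each gene against its mean level. Each grey point is 1 of the 10577 genes whose mean over 6 libraries (log axis) reached 50, the y axis is the mean of the 3 gains in log2 units, and named genes are coloured. *Pdyn*, in red at 2.60, sits well above the grey band, while *Gcg* and *Sst* lie higher and *Ins2* and *Iapp* lie near 0 at the right.

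*Gcg* (glucagon) and *Sst* (somatostatin), which mark the alpha- and delta-cells added to pseudo-islets, were the only genes with a mean of at least 50 whose gain was at or above that of *Pdyn* in each of the 3 experiments. Over all 13535 genes, low ones included, there were 7 such genes. *Gcg* gained 5.57, 5.96 and 11.03, and *Sst* gained 7.58, 7.20 and 5.20 in experiments 35, 36 and 37. The *Sst* gains and the *Gcg* gain of experiment 37 start from values listed at or near 0 in pseudo-beta and depend on the pseudocount. In pseudo-beta of experiments 35 and 36 *Gcg* had 36.1 and 14.1, whereas *Pdyn* had at least 156 in every pseudo-beta library. Among the 11894 genes that reached 10 in all libraries, *Pdyn* had the largest mean gain. That minimum leaves out *Gcg* and *Sst*, and also other genes with a larger mean gain than the 2.595 of *Pdyn*. Among those are *Ugt1a9* (4.63, with 0 in pseudo-beta of experiment 36) and *Hcar2* (2.603, with 8.15 there).

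The genes with the 3 gains nearest to those of *Pdyn* were found by Euclidean distance. In order, they were *Gm15681*, a processed pseudogene, *Gm27168*, a lincRNA, *Ttyh1*, a membrane protein of the tweety family, *Hcar2*, a receptor for hydroxybutyrate and nicotinic acid, and *Sgk1*, a serum- and glucocorticoid-induced kinase, at distances from 1.03 to 1.88 log2 units. *Gm15681* stood at 872, 1088 and 918 in pseudo-islets (experiments 35, 36 and 37) against 185, 282 and 151 in pseudo-beta. The lowest *Pdyn* values were somewhat higher, at 949.8 and 156. The gains of *Gm15681* were 2.23, 1.95 and 2.60, so it gained most in experiment 37, in which *Pdyn* gained least. A processed pseudogene can share reads with its parent gene, and the *Gm15681* values are uncertain for that reason. *Ttyh1* stood at 732, 911 and 680.4 against 127, 260.3 and 215, with gains of 2.51, 1.80 and 1.65. *Gm27168* and *Hcar2* were low, with 20.6 to 67.2 and 8.15 to 98.5 normalized counts in pseudo-beta.

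Likeness over the 6 libraries gave other genes. The highest Pearson r with *Pdyn* on the log2(value + 1) scale was found for *Slc25a5*, a mitochondrial ADP/ATP carrier (r = 0.989), *Haus1*, an augmin subunit (0.985), *Igsf5*, a junction protein (0.985), *Gcdh*, a glutaryl-CoA dehydrogenase (0.984), and *Atp1b1*, a subunit of the sodium pump (0.983). They moved far less than *Pdyn*, with mean gains from 0.17 (*Slc25a5*) to 0.96 (*Igsf5*). The points are the 6 libraries that chose the genes, and the correlations are given as a description.

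**Figure D3:**
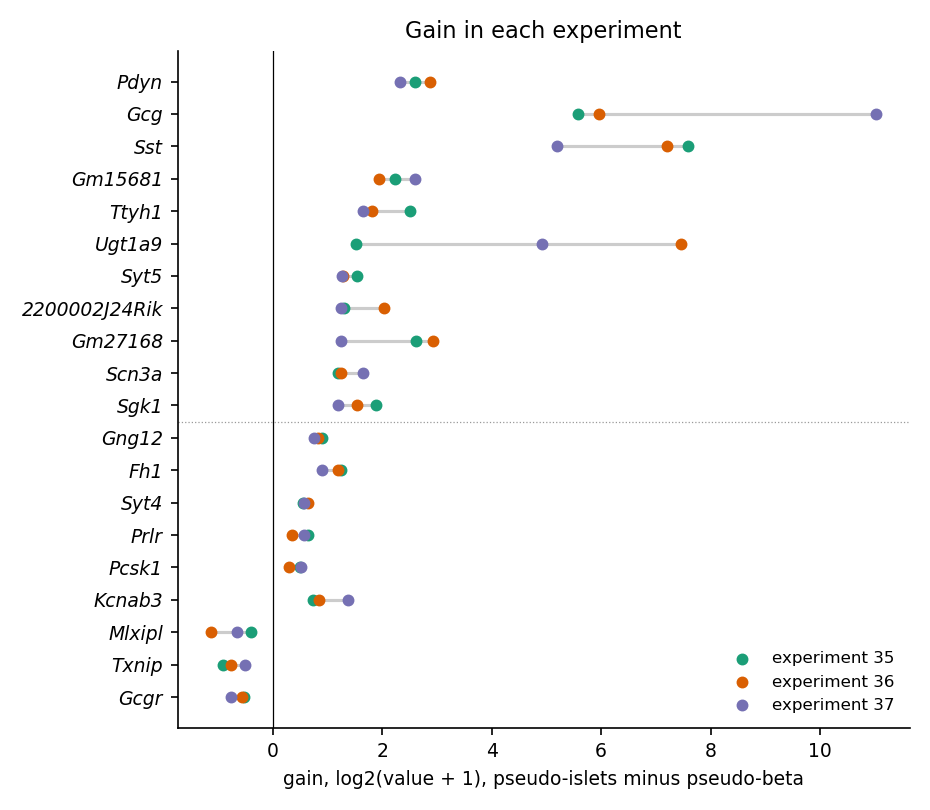
Gain of *Pdyn* in each experiment beside the 10 other genes with the largest smallest gain (above the dotted line) and the remaining genes the study picked from these samples (below it). Each point is 1 experiment and grey lines join the 3 points of a gene, in log2(value + 1), pseudo-islets minus pseudo-beta. The points of *Pdyn* lie between 2.32 and 2.87, whereas those of *Gcg* spread from 5.57 to 11.03.

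RNA of other endocrine cells differed between the groups as well, so the hormone genes were set beside *Pdyn*. In experiments 35, 36 and 37, *Gcg* stood at 1763, 941 and 2094 with the other cells present and at 36.1, 14.1 and 0 in pseudo-beta. *Sst* stood at 190.2, 146 and 210.2 against 0, 0 and 4.74. Both were therefore lowest among the pseudo-islets in experiment 36, the experiment in which *Pdyn* was highest and gained most. *Ppy*, the hormone of PP-cells, stood at 4172, 383 and 1790.5 against 1650.1, 219 and 731. *Pyy*, peptide YY, stood at 1328, 275 and 661 against 832, 109 and 301. Both were lowest in experiment 36 in either group, and they had levels of over 100 in every pseudo-beta library, in contrast to *Gcg* and *Sst*.

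By whole marker lists, 7 of 12 alpha-cell, 3 of 8 delta-cell, 2 of 2 PP-cell and 11 of 11 beta-cell markers were analysed, with 1 of 5 immune-cell markers and none of the acinar, endothelial or stromal ones. The summed level of the alpha-cell list ranged over 21088 to 27208 in pseudo-islets against 16411 to 20434 in pseudo-beta. Its largest members were *Tmem27* (group means 14050 and 12283) and *Ttr* (5698 and 3736), against 1599 and 16.7 for *Gcg*. The alpha-cell sum therefore mostly reflects genes that were high in both groups. The summed level of the delta-cell list was 504 to 797 and 439 to 458. That of the PP-cell list was 658 to 5500.2 and 328 to 2482, and that of the beta-cell list 7223445 to 8339707 and 6963960 to 7706952. The single immune-cell marker, *Cd68*, stood at 7.39 to 18.6 in pseudo-islets and 3.74 to 10.4 in pseudo-beta. In limma, *Gcg* of the alpha-cell list and *Sst* of the delta-cell list rose with and without the experiment as a block, and *Ttr*, an abundant alpha-cell transcript, *Ppy* and *Pyy* rose with it alone (*Ttr*: log2 fold change 0.59, adjusted p = 0.030 with the block and 0.848 without), while no beta-cell marker was called. *Sst* reached 10 only in the pseudo-islets and entered the table through them, so its call is no evidence of a direction. The part of other cells in the *Pdyn* difference was not tested.

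**Figure D4:**
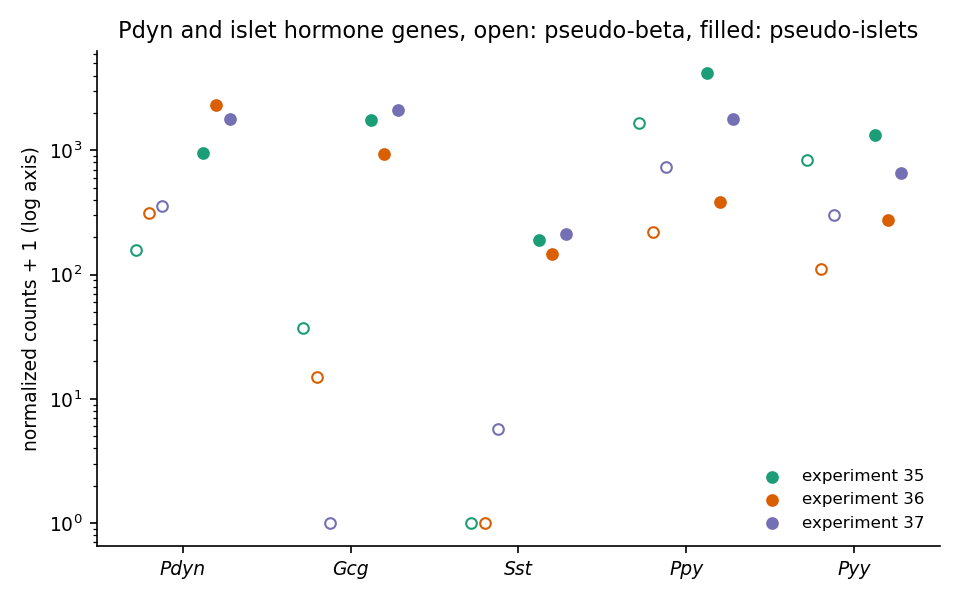
*Pdyn* and 4 islet hormone genes in the 6 libraries. Open points are pseudo-beta and filled points pseudo-islets, coloured by experiment, in normalized counts + 1 on a log axis. In experiment 36 *Pdyn* is at its highest, at 2308, while *Gcg*, *Sst*, *Ppy* and *Pyy* are at their lowest among the pseudo-islets.

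The other genes of the prodynorphin pathway were tested with limma, fitted on all 13535 genes with Benjamini-Hochberg adjustment over all of them. Without the experiment as a block this called 8 genes (0.0591%), all higher in pseudo-islets, while 5.4% of genes had an unadjusted p under 0.05. With the experiment as a block it called 73 (0.539%), of which 59 (0.436%) were higher and 14 (0.103%) lower, with 11.9% of genes at an unadjusted p under 0.05. *Pdyn* was part of both fits and is included in both counts. Its calls are not read, because it was chosen for this contrast. The median log2 fold change of all genes was 0.01, and adjusted p-values below come from these 2 fits.

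Of the other opioid precursors only *Pomc*, which encodes pro-opiomelanocortin, was analysed, and it was not called. Its pseudo-islet values were 149, 168 and 222 (experiments 35, 36 and 37) against 139, 205 and 189.7 in pseudo-beta, so the groups overlapped. Its log2 fold change was 0.02 with a 95% interval from -0.57 to 0.60 (limma, adjusted p = 0.998). *Penk*, *Pnoc* and the 4 opioid receptor genes were not analysed here.

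Of the 9 genes that cut, trim or chaperone prodynorphin, none was called without the block and 2 rose with it. *Pcsk1*, which encodes the prohormone convertase PC1/3, stood at 15813, 13399.8 and 12644 against 11265, 10927 and 8881 (pseudo-islets against pseudo-beta in normalized counts, in the order of experiments 35, 36 and 37, here and in the values that follow). Its groups did not overlap, and its log2 fold change was 0.43 (SE 0.07 with the block, adjusted p = 0.028 in limma with the block and 0.781 without). *Pcsk1* was also picked by the study on these samples and is no independent evidence of a direction. *Cpe*, carboxypeptidase E, which removes the basic residues left by the convertases, stood at 24257, 40674 and 59681 against 21134, 30654 and 43457. It varied widely between experiments but was higher in pseudo-islets in 3 of 3, with a log2 fold change of 0.35 (limma, adjusted p = 0.043 with the block and 0.998 without). *Pcsk2*, which encodes PC2, the convertase that releases the short dynorphins, had 51821, 52167 and 57000.3 against 46509, 50410 and 43520, and was not called (log2 fold change 0.20, adjusted p = 0.969, and 0.294 with the block). *Pcsk1n*, an inhibitor of PC1/3, was called by neither of these fits, with non-overlapping groups in the opposite direction at -0.41 (adjusted p = 0.848, and 0.098 with the block). In the fit with the block but without experiment 37, *Pcsk1n* fell (-0.56, adjusted p = 0.019), and neither *Pcsk1* nor *Cpe* was called (adjusted p = 0.124 and 0.184). The median log2 fold change of the 9 genes was 0.20, and 7 of them had a value above 0. Groups did not overlap for 2 of the 9 with pseudo-islets higher and for 1 with pseudo-islets lower. Over the table these shares were 5.63% and 5.13% of genes.

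None of the 7 peptidases that break down dynorphins and none of the 9 genes of opioid receptor coupling that were analysed was called by either fit. The medians were 0.07 and -0.26. *Kcnj6*, a subunit of the potassium channels opened by these receptors, had the largest value of the 9 at -1.14, from values of 14.5, 30.5 and 30.2 against 49.3, 84.3 and 36.8 (limma, adjusted p = 0.901, and 0.353 with the block). *Ide*, the insulin-degrading enzyme, which also cleaves dynorphins, stood at 0.28 (adjusted p = 0.992, and 0.435 with the block).

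Among 11 genes from the glucagon and incretin receptors to protein kinase A, *Gcgr* fell with the block and none was called without it. *Gcgr*, the glucagon receptor, stood at 874, 889 and 648 against 1267, 1318 and 1099.8. The study had picked *Gcgr* on these samples, so its call is no independent evidence of a direction. It was lower in pseudo-islets in 3 of 3 experiments, opposite to *Pdyn*, with a log2 fold change of -0.62 (SE 0.12 with the block, adjusted p = 0.043 in limma with the block and 0.649 without). *Gipr* (the GIP receptor, -0.40) and *Adcy6* (an adenylate cyclase, -0.79) also had groups that did not overlap, with pseudo-islets lower, but neither was called (adjusted p = 0.928 and 0.872, and 0.311 and 0.216 with the block). With *Gcgr*, 3 of the 11 genes had such groups, against 5.13% of genes over the table. *Adcy5* and *Adcy8* were listed but not analysed. *Glp1r*, the GLP-1 receptor, stood at -0.16 (adjusted p = 0.990, and 0.349 with the block). The median of the 11 genes was -0.16.

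Of 15 regulators of *Pdyn* transcription, *Crem* was the only one called, and only with the block. *Kcnip3* and *Fosb* were listed as regulators but not analysed. *Crem*, a cAMP-responsive modulator whose own transcription is induced by cAMP, stood at 953, 957 and 1415 against 656, 467 and 842. Its log2 fold change was 0.77 (SE 0.13 with the block, adjusted p = 0.032 in limma with the block and 0.781 without). *Creb1*, the main cAMP-response factor, stood at 0.38 and was not called (adjusted p = 0.969, and 0.303 with the block). *Fos*, an immediate-early gene, differed between experiments rather than groups, at 902, 329 and 8245 against 1104, 384 and 9085. Experiment 37 held the highest *Fos* level in both groups, while the *Pdyn* level was highest in experiment 36 among the pseudo-islets and in experiment 37 among the pseudo-beta. The median of the 15 regulators was -0.01.

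Of 16 genes known to be induced by cAMP, none was called without the block and 4 rose with it, *Sgk1*, *Crem*, *Pde4b* and *Pcsk1*. The study had picked *Sgk1* and *Pcsk1* on these samples, so they are not independent evidence of a direction. *Sgk1* stood at 369.8, 353 and 230.1 against 99.9, 120.0 and 100.5, with a log2 fold change of 1.54 (limma, adjusted p = 0.012 with the block and 0.133 without). *Pde4b*, a cAMP phosphodiesterase, had 2334, 1961 and 1795 against 1557, 1384 and 1014, with a log2 fold change of 0.64 (adjusted p = 0.028 with the block and 0.681 without). The median of the 16 genes was 0.17, with 11 above 0 and 5 below, among them *Gem* (-0.48), *Irs2* (-0.36) and *Fos* (-0.22). Only the 4 called genes had groups that did not overlap, all with pseudo-islets higher, against 5.63% of genes over the table. These 4 were already chosen by their call.

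**Figure D5:**
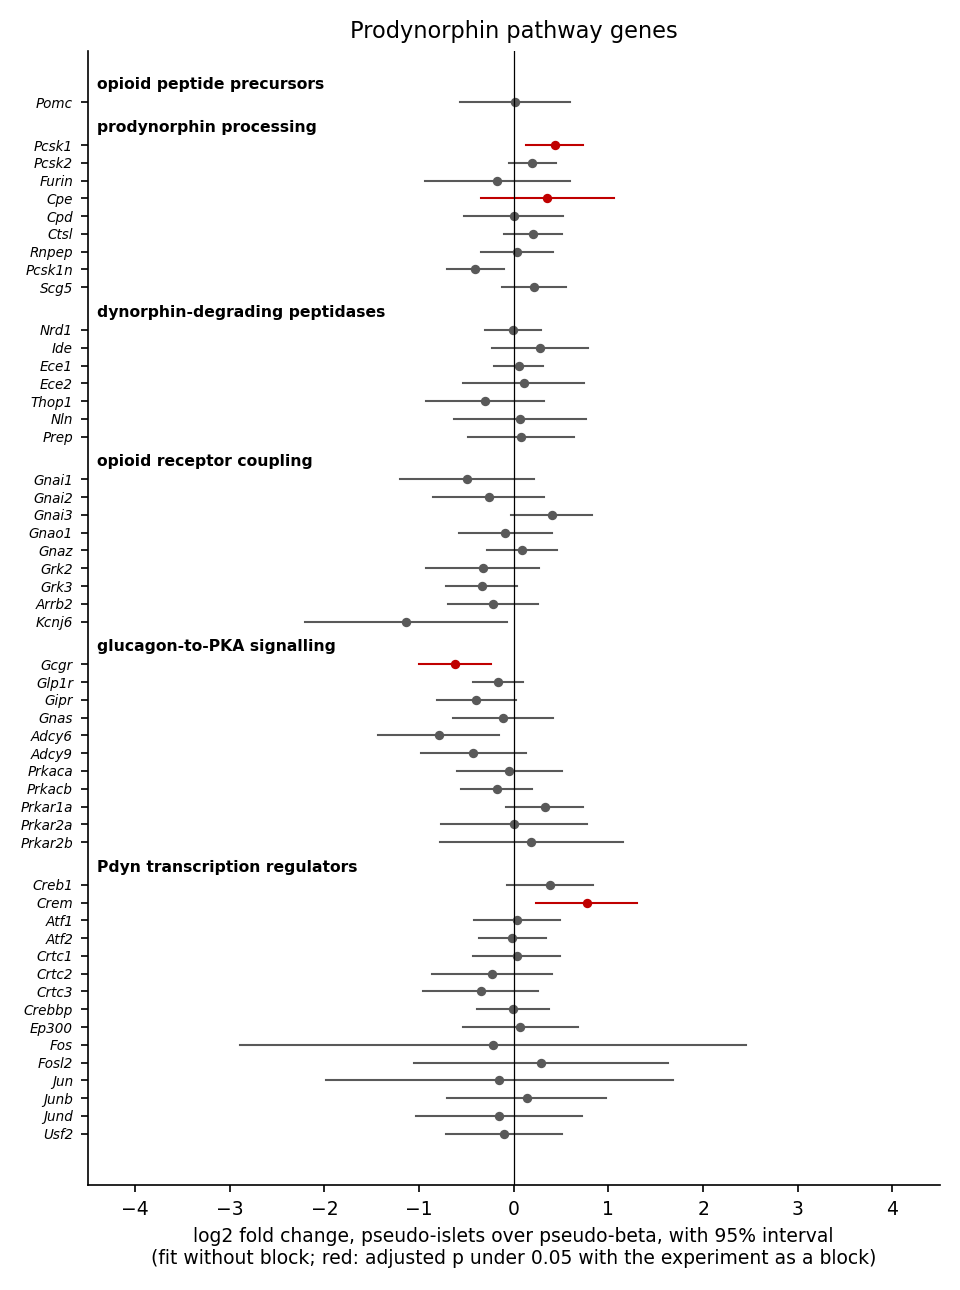
Log2 fold change of the genes around prodynorphin, pseudo-islets over pseudo-beta, by role. Points are limma estimates without the block, bars their 95% intervals, and red marks an adjusted p under 0.05 with the experiment as a block. *Pcsk1*, *Cpe* and *Crem* are red to the right of 0 and *Gcgr* to the left, and the widest bar belongs to *Fos*.

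Of the 19 other peptide precursors analysed, *Gcg* and *Sst* rose in the fit without the block, and *Ppy*, *Pyy* and *Chgb* joined them with it. Over the table, 0.0591% of genes were called higher without the block and 0.436% with it. *Sst* entered the table through the pseudo-islets, so its call is no evidence of a direction. *Chgb*, the granule protein chromogranin B, stood at 22938, 22919 and 25303 against 18056, 18166 and 16221, which is 0.44 in log2 fold change (limma, adjusted p = 0.029 with the block and 0.525 without). *Ppy* and *Pyy* stood at 1.15 and 1.04 (adjusted p = 0.0027 and 0.026 with the block, 0.990 and 0.983 without). The median of the 19 genes was 0.21, and the values of *Gcg* and *Sst* rest on pseudo-beta levels at or near 0.

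*Pdyn* was one of 12 genes that the study had chosen on these samples, and the counts for the 11 others are therefore no independent evidence of a direction. *Gng12*, a G protein gamma subunit, and *Syt5*, a synaptotagmin, rose without the block (limma, adjusted p = 0.041 and 0.038), and with it 7 rose and 3 fell. Their log2 fold changes were 0.83 and 1.36, smaller than the smallest gain of *Pdyn*. *Fh1*, fumarate hydratase, gave 1.11 (adjusted p = 4.0e-04 with the block and 0.091 without). *Kcnab3*, a potassium channel subunit, was called by neither fit, at 0.99 (adjusted p = 0.848, and 0.062 with the block).

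The neighbours of *Pdyn* on chromosome 2 were compared to see how far along the chromosome a difference extended. Of 29 annotated genes within 500 kb, 9 were analysed, and none was called with or without the block. *Sirpa*, a receptor of the immunoglobulin family 54.3 kb away, stood at 969, 1129.7 and 1322 against 1110.2, 944 and 1028, with a log2 fold change of 0.14 (limma, adjusted p = 0.998). *Stk35*, a kinase 100.7 kb away on the other side, had low values of 10.2 to 32.1 and a log2 fold change of 0.71 (adjusted p = 0.990). The largest value among the 9 was that of *Il1b*, which encodes interleukin-1 beta, at 1.11 (adjusted p = 0.872, and 0.266 with the block). Its values were 82.2, 96.8 and 94.2 against 24.6, 38.6 and 74.9, and its groups did not overlap. The groups of the pseudogene *Spcs2-ps* did not overlap either, with pseudo-islets lower (-0.50, limma, adjusted p = 0.992). Over the table, 5.63% of genes had such groups with pseudo-islets higher and 5.13% with pseudo-islets lower.

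The 250 bases before the annotated RefSeq start of *Pdyn* are shown because motifs for cAMP- and calcium-responsive factors were searched there. They are printed 5′ to 3′ on the minus strand (GRCm38.p6, chr2:129699939-129700188), with capitals marking a noncanonical AP-1 motif.
Pdyn promoter: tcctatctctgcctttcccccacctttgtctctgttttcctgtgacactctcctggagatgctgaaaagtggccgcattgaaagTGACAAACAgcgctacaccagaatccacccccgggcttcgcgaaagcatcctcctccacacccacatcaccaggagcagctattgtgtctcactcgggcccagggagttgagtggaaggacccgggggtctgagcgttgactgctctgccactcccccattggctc
Both strands of these 250 bases were searched. The motif TGACAAACA was found 1 time, starting 166 bases before the start, and is held by 0.274% of the 32851 mouse promoter windows of the same length in RefSeq. The cAMP-response element TGACGTCA (1.55% of promoters), its core TGACG (17.8%) and the AP-1 motif TGANTCA (6.75%) were not found in it. The core TGACG is part of TGACGTCA. The window of the internal start held none of the 4 motifs. The 4 motifs were picked with *Pdyn* in mind, so the match to TGACAAACA is not an independent finding. Its share over promoters is a description and no evidence of regulation. A match here is a string of letters, and no binding was measured.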

How the data were processed

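The authors sorted beta-cells by FACS, used 5 ng of RNA with the Ovation solo kit and rRNA depletion, aligned the reads with STAR 2.7.6a on GRCm38, estimated counts per gene with RSEM 1.3.1 and normalized them with DESeq2 1.26.0 in R 3.6.3. The values deposited by the authors are these normalized counts, treated here as a signal and not as raw counts, and every gene listed had at least 10 in at least 3 libraries. The table also holds the authors' own comparison (fold changes and p-values), which was not used. Depth in reads is unknown, since whole reads could not be recovered.

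Values were analysed as log2(value + 1), and fold changes on this scale understate low genes. Genes other than *Pdyn* were tested with limma 3.58.1 (R 4.3.3) with a mean-dependent trend, over all 13535 genes with Benjamini-Hochberg adjustment and a threshold of 0.05, on simulated data first. An exact permutation test of 3 against 3 libraries cannot go below 0.1. The experiment numbers are in the sample labels. Deviations of libraries of the same experiment correlated at 0.119, 0.121 and 0.325, those of different experiments at -0.203 to 0.0922, so the fit with the experiment as a block is given where calls change.

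*Pdyn* and the gene lists were chosen with earlier results of these data known. Named genes are those called by either fit, the 5 highest or the 5 most changed of a list, neighbours within 500 kb, and the 5 genes nearest to *Pdyn* in gains or correlation. Gene models came from GENCODE, and promoters from RefSeq. Figures were drawn with matplotlib 3.10.9.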

Additional observations from a re-analysis of the deposited data

How the results depend on the processing

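*Pdyn* was higher in pseudo-islets under every setting tried. Its mean gain of 2.60 was 2.54 after scaling without the 10 most abundant genes, 2.55 with a pseudocount of 10, and 2.23 to 2.96 when any 1 library was left out, the extremes coming without pseudo-beta and without pseudo-islets of experiment 35. Its place by mean gain was 6 among genes with a mean of at least 50, 22 with a mean of at least 10, 2 with at least 500, and 1 among genes with at least 10 in every library. Likewise 4, 1 and 0 genes gained as much in each experiment, in place of 2. Of the 5 nearest genes, 3 were shared with a mean of at least 10 and 1 with at least 500, and both of these minimums were chosen after seeing the data.

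Calls depended on the fit. Over the table, 8 became 73 with the replicate block, 82 with the block and that scaling (added after seeing the data), 2 with the scaling, and 2 without the trend. Leaving out 1 library gave 0 to 13, with 0 when pseudo-islets 35, 36 or 37 or pseudo-beta 35 was left out, 1 without pseudo-beta 36 and 13 without pseudo-beta 37. With the block, leaving out an experiment gave 28, 73 and 45 (35, 36 and 37). With the block, and with block and scaling, processing genes numbered 2, both higher, and 3, with *Pcsk1n* lower (adjusted p = 0.032) as the third; leaving out experiment 35, 36 or 37 left 1 with the block, *Cpe* higher, *Pcsk1* higher and *Pcsk1n* lower in turn. With the same pair of fits, regulators numbered 1 and 1 and glucagon signalling 1 and 1 (0 when any 1 experiment was left out), and cAMP-induced genes 4 and 4 (0, 3 and 1 without experiments 35, 36 and 37). Peptide precursors numbered 5 and 5 with them, 1 with the scaling, 0 without the trend and 0 with at least 10 in every library, and 0 to 5 with a library or experiment left out. The study's other 11 genes gave 10 and 10, 0 with the scaling, 0 without the trend, and 0 to 8 with a library or experiment left out. Neighbours, coupling, peptidases and *Pomc* were called in none of the settings. The log2 fold change of *Pomc* reversed to -0.042 with the scaling, with or without the block, and to -0.028 and -0.088 with the block without experiments 35 and 37, and ranged from -0.15 (without pseudo-beta 35) and -0.14 (without pseudo-islets 37) to 0.14 (without pseudo-islets 35) when 1 library was left out. The cause was not tested. Of *Fos* (-0.22) it ranged from -1.52 (without pseudo-islets 37) to 1.05 (without pseudo-beta 37), and it was also above 0 without pseudo-islets 35 (0.07) and 36 (0.80). Of the 44 named genes recomputed, these 2 were the ones whose sign changed. The scaling moved the median of all genes by -0.06.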
